A study of Mus musculus with 16 samples.

Results

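The genes described here are 10 chemokines and inflammatory mediators of the mouse liver: the chemokines Ccl2, Ccl3, Ccl4, Ccl5, Ccl6, Cxcl1 and Cxcl2, the cytokines Tnf and Il1b, and the adhesion molecule Icam1. They were taken from a list of names and found on the array by matching each probe's accession to a gene symbol, and 10 of 10 were found, each with 1 probe. They were tested among 25798 features, of which 15255 carried a RefSeq gene name. All 10 passed the filter on dim probes, which asked for a signal well above background on 8 or more of 16 arrays.

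Liver RNA came from 16 samples, 8 labelled miR-185-inh and 8 labelled ctrl-inh. The miR-185-inh mice had been injected with a lentivirus encoding an antisense inhibitor of the microRNA miR-185, and ctrl-inh is the label of the control inhibitor. Every mouse of both groups was a male ApoE KO with a stated age of 8 weeks and was fed a high-fat diet, so the gene deletion and the diet were shared by the controls. Livers were taken after 8 weeks. No array here holds a liver with an intact Apoe gene or from a mouse without an inhibitor. The labels do not say which liver cells carried the virus.

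Chemokines are small secreted proteins that guide white blood cells along a gradient by binding receptors on the cell surface. Those of the CC class mainly draw monocytes, macrophages and lymphocytes, while Cxcl1 and Cxcl2 draw neutrophils through the receptor Cxcr2. Tnf and Il1b are early cytokines of resident macrophages, the Kupffer cells of the liver, and act on neighbouring cells through the transcription factor NF-kB, which in turn raises chemokine and adhesion genes. Icam1 sits on sinusoidal endothelial cells and holds the white blood cells that carry the integrin of Itgal and Itgb2. ApoE knockout mice on a fat-rich diet are a model of high blood cholesterol and atherosclerosis, in which these genes are often followed as signs of inflammation.

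Each array measured 59305 non-control spots, and its signals are given as log2 units relative to that array's 75th percentile. Between 60.7% and 67.1% of the spots were well above background on the miR-185-inh arrays, against 58.7% to 74.8% on the ctrl-inh arrays. All miR-185-inh arrays lay on one slide with its own scan and all ctrl-inh arrays on another, so group, slide and scan cannot be told apart. The arrays of a slide lay in 2 rows, 4 in each. Row 2 held mice 8, 9, 10 and 12 and row 1 held mice 1, 3, 6 and 7 of the miR-185-inh group, while row 2 held mice 8, 9, 11 and 12 and row 1 held mice 1, 2, 3 and 4 of the ctrl-inh group. Higher mouse numbers therefore ran with row 2, and row and mouse number cannot be told apart. The 4 ctrl-inh arrays of row 1 stood apart in detection, with 68.6% to 74.8% of spots above background, against 58.7% to 67.1% on the other 12 arrays. Samples are called mice here by the number in their titles. Because the labels do not state that the numbered samples are separate animals, the p-values below reflect sample-to-sample spread that could be technical. Hepatocyte markers were measured in all samples (10 of 10 tested), as the labelled tissue requires. Apoe itself gave a bright signal in both groups, 4.15 ± 0.27 in miR-185-inh and 3.87 ± 0.35 in ctrl-inh livers (SD, n = 8 each), and whether its probe lies in the deleted stretch is not known here. The number of arrays limits the precision of every value.

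Between the groups, none of the 10 genes passed the test. With limma and Benjamini-Hochberg adjustment over all features, 0 of 10 had an adjusted p under 0.05, beside 4.74% of all features (1223 of 25798). An unadjusted p under 0.05 was found for 1 of 10, beside 5225 of 25798 features. The log2 differences of miR-185-inh minus ctrl-inh ran from -0.50 (Cxcl2) to 0.04 (Ccl3), and that of Cxcl2 was -0.30 without ctrl-inh mouse 1 and -0.27 with background corrected by normexp. Their median was -0.19, beside -0.033 over all features, with 1 gene above zero and 9 below. For none of the 10 did the groups stand clear of each other, beside 0.857% of all features. In whole-liver RNA, fewer cells of a type and less RNA per cell cannot be told apart.

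**Figure D1:**
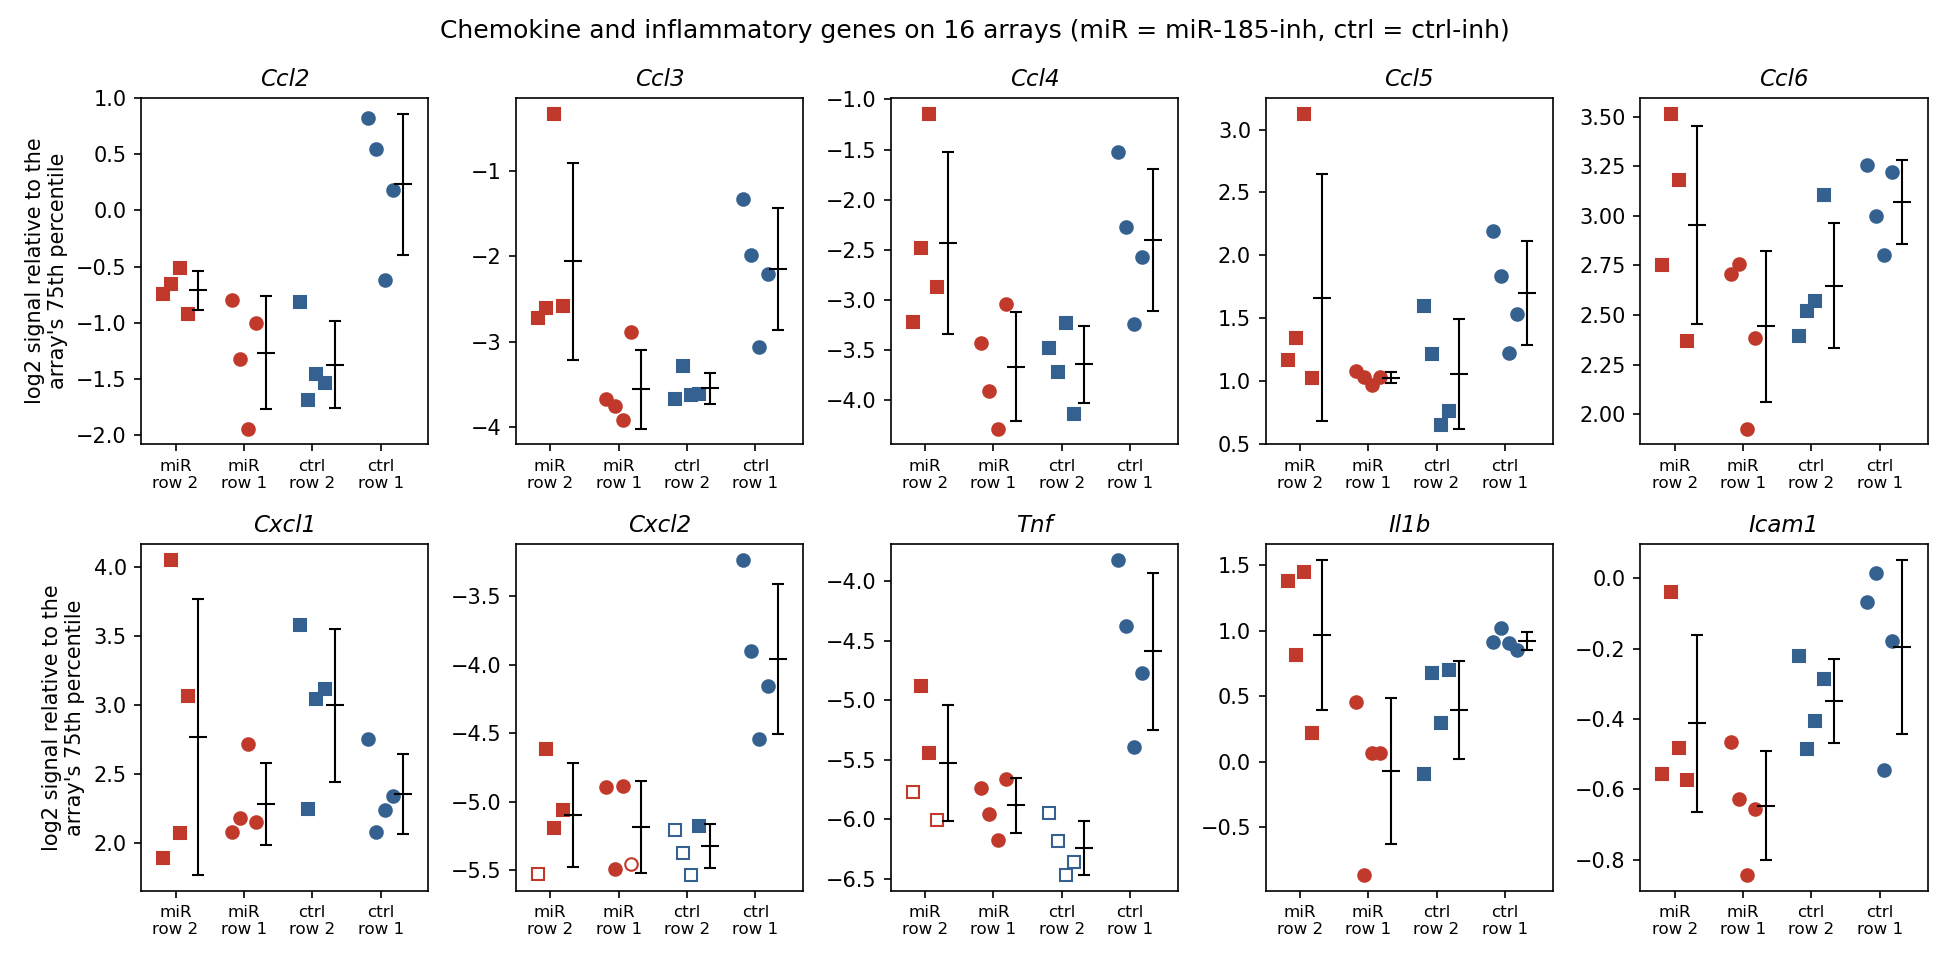
Log2 signal of the 10 genes relative to each array's 75th percentile, by group and slide row (miR = miR-185-inh, ctrl = ctrl-inh; 1 symbol per liver, squares for row 2 and circles for row 1, open where the probe was not well above background, bars for the mean and SD of 4 livers). The 4 ctrl-inh livers of row 1 lie above all 4 of row 2 for Ccl2, Ccl3, Cxcl2, Tnf and Il1b, while miR-185-inh livers show the reverse order only for Ccl3.

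For 8 of the 10 genes the group difference had opposite signs in the slide rows, and for Cxcl1 and Icam1 it was below zero in both. Among the row 1 arrays all 10 genes were lower in miR-185-inh livers, with a median log2 difference of -1.11, beside 0.0069 over all features. For 6 of them (Ccl2, Ccl5, Ccl6, Cxcl2, Tnf and Il1b) the 4 miR-185-inh livers lay below all 4 ctrl-inh livers, which 6.48% of features did. Cxcl2 and Tnf would not have reached the filter on dim probes without these 4 ctrl-inh arrays, where they are high. Among the row 2 arrays 8 genes lay above zero and 2 below, with a median of 0.59, beside -0.070 over all features. Ccl3 and Ccl4 were the 2 whose 4 miR-185-inh livers lay above all ctrl-inh livers, which 3.96% of features did. In limma fits of each row alone no member had an adjusted p under 0.05, the lowest being 0.0967 in row 1 and 0.0989 in row 2, beside 0% and 1.84% of features called. At an unadjusted p under 0.05 there were 9 members in row 1, beside 4616 of 25797 features, and 4 in row 2, beside 5468 of 25798. With 4 livers against 4 the smallest two-sided exact permutation p is 0.0286.

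**Figure D2:**
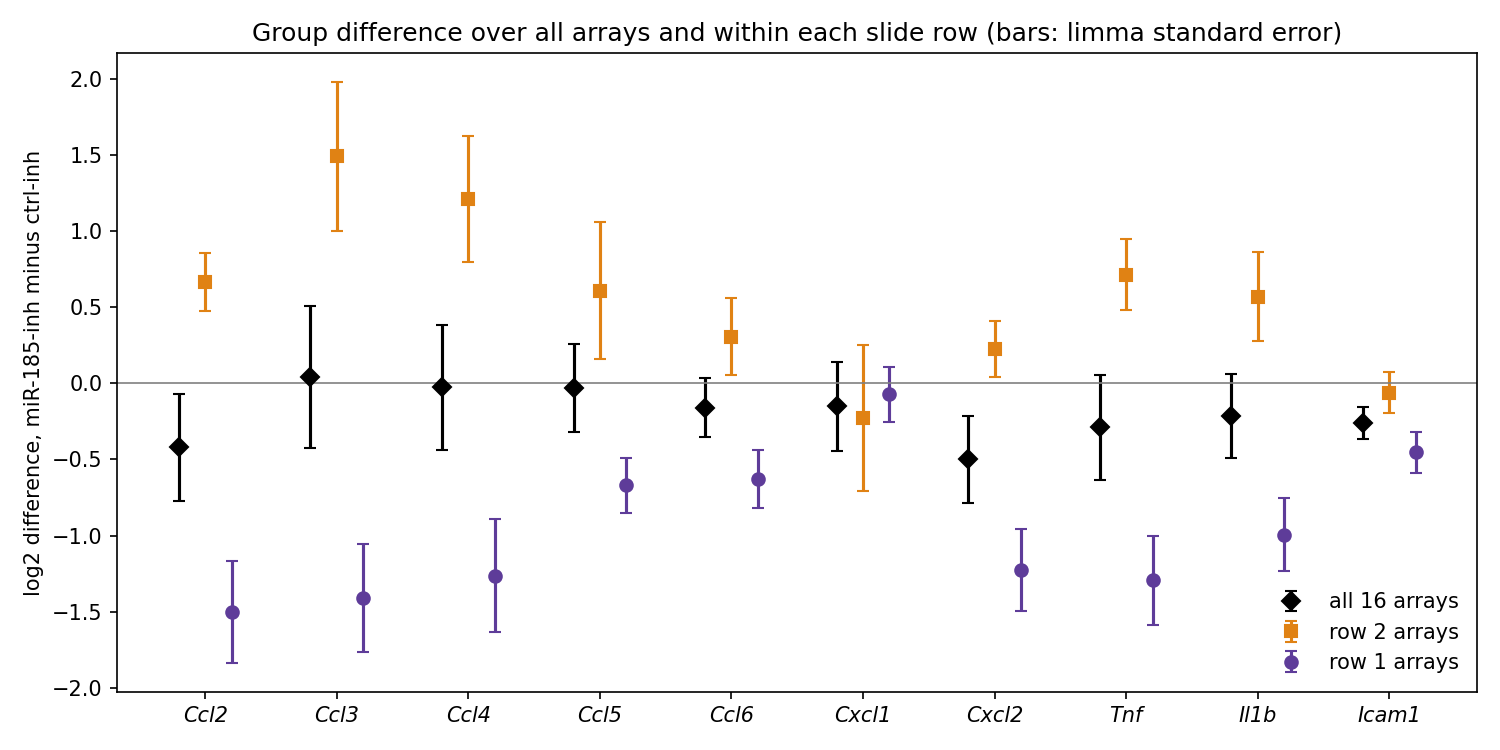
Log2 difference of miR-185-inh minus ctrl-inh for each gene over all 16 arrays, among the 8 arrays of row 2 and among the 8 arrays of row 1 (bars, standard error from limma). Row 1 differences lie below zero for all 10 genes, row 2 differences above zero for 8, and the values over all arrays between those of the rows. For Cxcl1 alone the row 2 value is the lower of the 2 rows.

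Within the ctrl-inh group, 3 of the 10 genes fell in row 2 relative to row 1: Ccl2, Cxcl2 and Tnf. The share called lower among all features was 1.65% (426 of 25798), and as many as 419 features were called higher. Cxcl2 and Tnf were well above background on 11 and 10 of 16 arrays. Without the 4 ctrl-inh arrays of row 1, where they are high, they would not have reached the filter's 8 arrays. Their calls are therefore not independent of that filter. With a filter on all 16 arrays these 2 were left untested, and 1 of 8 members was called. Of the 10 genes 9 lay below zero, with a median of -0.94, beside 0.089 over all features, and 5 of them (Ccl2, Ccl3, Cxcl2, Tnf and Il1b) had row 2 livers all below row 1 livers, beside 5.29% of features. Within the miR-185-inh group all 10 genes lay above zero, with a median of 0.53, beside 0.0054 over all features. None of these 10 passed limma's adjusted threshold there, and neither did any other feature (0% called; 4361 features and 4 of the 10 genes had an unadjusted p under 0.05). Ccl3 was the 1 gene whose row 2 livers lay all above row 1, beside 2.98% of features. The 4 ctrl-inh arrays of row 1 are those with the most spots above background, and the part of that in these row differences was not tested.

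**Figure D3:**
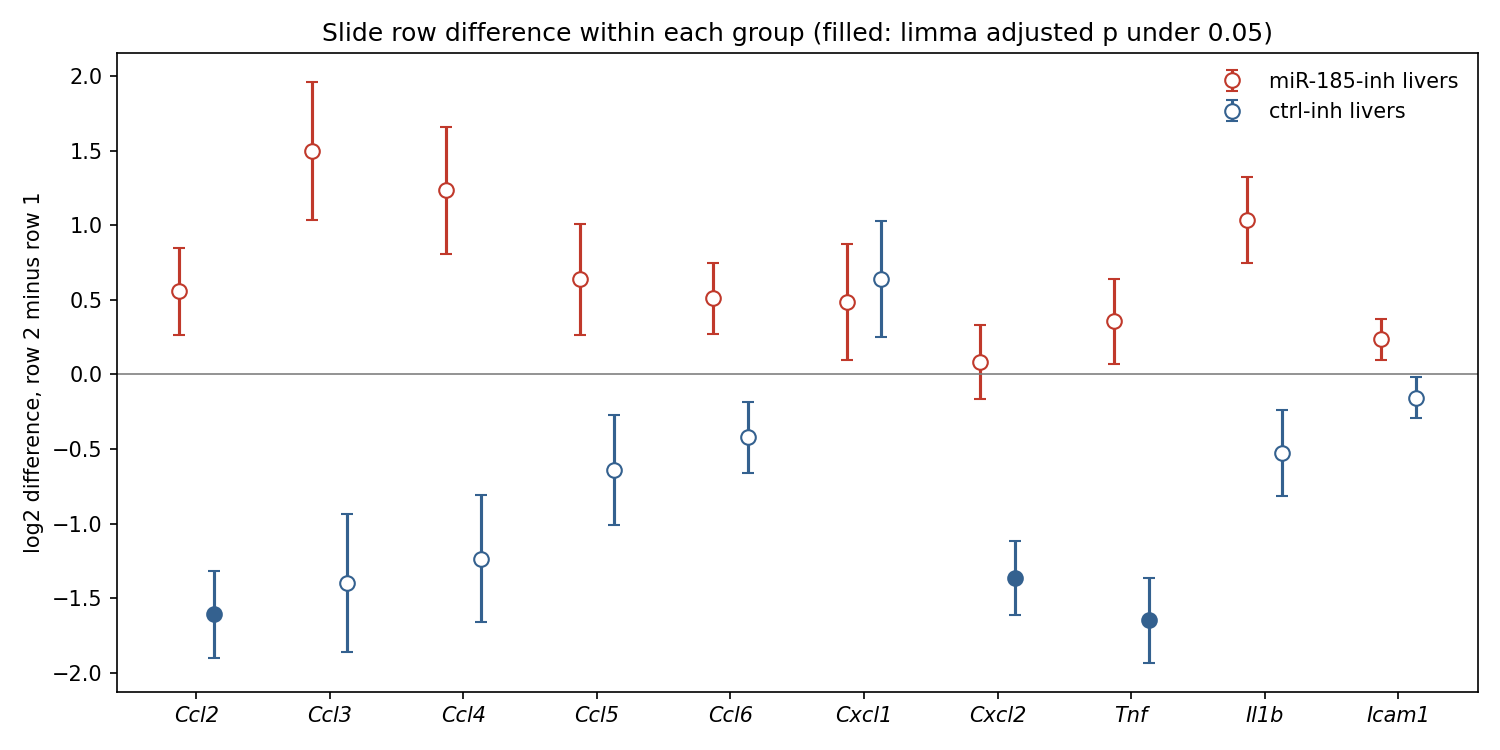
Log2 difference of slide row 2 minus row 1 within miR-185-inh and within ctrl-inh livers (bars, standard error from limma; filled where the adjusted p is under 0.05). Ccl2, Cxcl2 and Tnf are filled, all in ctrl-inh livers and all below zero, and Cxcl1 is the 1 gene above zero in both groups.

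Ccl2 encodes the main attractant of blood monocytes, acting through the receptor Ccr2. In miR-185-inh livers it stood at -0.75, -0.66, -0.51 and -0.93 in row 2 and at -0.80, -1.33, -1.94 and -1.0 in row 1. In ctrl-inh livers it stood at -0.81, -1.69, -1.46 and -1.54 in row 2 and at 0.83, 0.55, -0.62 and 0.19 in row 1. Only ctrl-inh mice 1, 2 and 4 were above zero, and ctrl-inh mouse 3 lay inside the range of the miR-185-inh livers. Row 2 of the ctrl-inh group averaged -1.37 ± 0.39 and row 1 averaged 0.23 ± 0.63 (SD, n = 4 each). That difference of -1.61 (SE 0.29) was a 3.05-fold lower level, with a limma adjusted p of 0.0142. Without ctrl-inh mouse 1 it was -1.41 and the adjusted p 0.0543. The 2 groups as wholes overlapped widely, with lowest, median and highest values of -1.94, -0.86 and -0.51 in miR-185-inh and -1.69, -0.72 and 0.83 in ctrl-inh livers.

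Ccl3 and Ccl4, neighbouring genes for attractants of macrophages and lymphocytes, both had their highest value of the 16 livers in miR-185-inh mouse 10. Ccl3 stood at -2.72, -2.60, -0.33 and -2.58 in row 2 and at -3.67, -3.76, -3.92 and -2.89 in row 1 of the miR-185-inh group. In ctrl-inh livers it stood at -3.67, -3.29, -3.62 and -3.62 in row 2 and at -1.33, -1.99, -3.07 and -2.21 in row 1. The 2 rows did not overlap in either group, and their order was opposite. The difference of row 2 minus row 1 was 1.50 (SE 0.46, limma adjusted p = 0.150) in miR-185-inh and -1.40 (SE 0.46, adjusted p = 0.105) in ctrl-inh livers, so neither passed. Without miR-185-inh mouse 10 the first of these was 0.92, while the ctrl-inh difference passed (-1.40, adjusted p = 0.0243). Among the 16 fits without 1 liver this was the 1 in which the ctrl-inh difference passed. It also passed with array weights (-1.33, adjusted p = 0.0337) and in a fit of the 8 ctrl-inh arrays alone (-1.40, adjusted p = 0.0461). In 10 of 12 other settings it did not pass. Ccl4 differed by 1.23 (SE 0.43, adjusted p = 0.176) in miR-185-inh and by -1.24 (SE 0.43, adjusted p = 0.118) in ctrl-inh livers, and the first of these was 0.80 without mouse 10. Mouse 10 held the highest Ccl4 value of all 16, -1.14, and ctrl-inh mouse 1 followed at -1.53.

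Ccl5, a chemokine made by T cells and NK cells among others, was even across most miR-185-inh livers. Its row 1 values there ran from 0.97 to 1.08, and row 2 held 1.17, 1.34, 3.13 and 1.02, the 3.13 again from mouse 10. In ctrl-inh livers it ran from 0.65 to 1.59 in row 2 and from 1.22 to 2.19 in row 1. The row differences were 0.64 (SE 0.37, limma adjusted p = 0.401) in miR-185-inh and -0.64 (SE 0.37, adjusted p = 0.323) in ctrl-inh livers, and the first was 0.15 without mouse 10. Ccl6, a chemokine known from rodents and made by macrophages and other myeloid cells, varied less. It averaged 2.95 ± 0.50 in row 2 and 2.44 ± 0.38 in row 1 of the miR-185-inh group, against 2.65 ± 0.31 in row 2 and 3.07 ± 0.21 in row 1 of the ctrl-inh group (SD, n = 4 each). Neither row difference passed, with adjusted p of 0.294 and 0.316 in limma.

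Cxcl1 and Cxcl2 are neighbouring genes for neutrophil attractants, and NF-kB sites in their promoters are known from mouse macrophages. RefSeq promoter windows of build GRCm38.p6, from 250 bases before to 50 after the gene start, were matched for 7 of the 10 genes (not for Ccl2, Ccl4 and Ccl5). The NF-kB motif named kappaB, searched on both strands, occurred in 2 of these 7 windows, those of Cxcl1 and Cxcl2, and in 8.5% of all 32851 windows. In both windows its 2 overlapping matches, 1 on each strand, formed the same 11-base run, which 14 of all 32851 windows held. The 120 bases before each start are shown for these 2 genes because they share that run, given in capitals. The stretches lie at chr5:90903779-90903898 on the plus strand for Cxcl2 and chr5:90891125-90891244 on the plus strand for Cxcl1.
Cxcl2: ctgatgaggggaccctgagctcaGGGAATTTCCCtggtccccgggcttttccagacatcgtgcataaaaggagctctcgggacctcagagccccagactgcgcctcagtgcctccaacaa
Cxcl1: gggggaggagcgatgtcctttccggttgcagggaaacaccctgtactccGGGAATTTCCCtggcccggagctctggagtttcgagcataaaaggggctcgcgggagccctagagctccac
Counting back from the start, the run begins at position -97 of Cxcl2 and at position -71 of Cxcl1. The AP-1 motif TGANTCA was in 0 of 7 windows (7.8% of all), and TATAAA in 3 of 7, those of Tnf, Il1b and Icam1 (13.6% of all), both strands searched. TATAAA begins at position -29 of Tnf and -31 of Il1b, but at position 14 of Icam1, after the start. A match describes letters only, and factor binding was not measured.

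Cxcl2 was a dim probe, well above background on 6 miR-185-inh and 5 ctrl-inh arrays. In miR-185-inh livers it stood at -5.53, -4.62, -5.19 and -5.06 in row 2 and at -4.90, -5.50, -4.89 and -5.46 in row 1. In ctrl-inh livers it stood at -5.21, -5.37, -5.54 and -5.18 in row 2, where mouse 12 alone was above background, and at -3.24, -3.90, -4.54 and -4.16 in row 1. The 4 ctrl-inh livers of row 1 were the 4 highest of the 16. Row 2 minus row 1 was -1.37 (SE 0.25) in ctrl-inh livers, with a limma adjusted p of 0.0142, and 0.084 (SE 0.25, adjusted p = 0.902) in miR-185-inh livers. Without ctrl-inh mouse 11 the ctrl-inh difference was -1.30 and its adjusted p 0.0520. With background corrected by normexp instead of the scanner software it was -0.69 (adjusted p = 0.0260). No fold is given, since 3 of the 4 row 2 values were not well above background and the size of the difference depends on the background correction.

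Cxcl1 was the member that went another way. It averaged 2.77 ± 1.0 in row 2 and 2.28 ± 0.30 in row 1 of the miR-185-inh group, against 2.99 ± 0.55 in row 2 and 2.35 ± 0.29 in row 1 of the ctrl-inh group (SD, n = 4 each). Row 2 minus row 1 was 0.49 (SE 0.39) in miR-185-inh and 0.64 (SE 0.39) in ctrl-inh livers, both above zero and neither past the threshold (limma adjusted p of 0.561 and 0.346). The miR-185-inh value was 0.058 without mouse 9 and 0.78 without mouse 8. The highest single values were 4.05 in miR-185-inh mouse 9 and 3.58 in ctrl-inh mouse 8. The lowest, 1.89, was in miR-185-inh mouse 8 of the same row as mouse 9.

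Tnf, the cytokine that gives its name to the tumour necrosis factor family, was detected on the fewest arrays, well above background on 6 miR-185-inh and 4 ctrl-inh arrays. In miR-185-inh livers it stood at -5.77, -4.88, -5.45 and -6.01 in row 2 and at -5.74, -5.96, -6.18 and -5.66 in row 1. In ctrl-inh livers it stood at -5.95, -6.18, -6.47 and -6.36 in row 2, all 4 not well above background, and at -3.82, -4.38, -5.39 and -4.77 in row 1, all 4 above it. The rows did not overlap in ctrl-inh livers, and ctrl-inh mice 1, 2 and 4 were the 3 highest of the 16. Row 2 minus row 1 was -1.65 (SE 0.29, limma adjusted p = 0.0119) there. As for Cxcl2 no fold is given, since all 4 row 2 values were not well above background and the size of the difference depends on the background correction. With normexp background correction the difference was -0.49 and did not pass (adjusted p = 0.0663). In miR-185-inh livers it was 0.36 (SE 0.29, adjusted p = 0.560), and 0.14 without mouse 9.

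Il1b, whose product is released after cleavage by the inflammasome protease Casp1, stood at 1.38, 0.81, 1.45 and 0.22 in row 2 and at 0.45, -0.87, 0.06 and 0.07 in row 1 of the miR-185-inh group. In ctrl-inh livers it stood at -0.09, 0.68, 0.30 and 0.70 in row 2 and at 0.92, 1.02, 0.90 and 0.85 in row 1. The 4 ctrl-inh livers of row 1 lay close together, above all of row 2, and the miR-185-inh rows overlapped through mouse 12 of row 2 and mouse 1 of row 1. Neither row difference passed, at 1.04 (SE 0.29, limma adjusted p = 0.135) in miR-185-inh and -0.53 (SE 0.29, adjusted p = 0.297) in ctrl-inh livers. Among the 10 genes, 1.04 came with the lowest adjusted p of the miR-185-inh row comparison.

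Icam1 had the lowest p of the 10 in the comparison of the groups. Its lowest, median and highest values were -0.84, -0.56 and -0.04 in miR-185-inh livers and -0.55, -0.25 and 0.01 in ctrl-inh livers. The groups overlapped, and miR-185-inh mouse 9 alone lay above the ctrl-inh mean. The difference of -0.26 (SE 0.11), a 1.20-fold lower level shown by 7 of 8 miR-185-inh livers, had an exact permutation p of 0.0339 over 12870 splits and a limma adjusted p of 0.172 over all features, so it did not pass. Within rows it was -0.45 (SE 0.14) in row 1 and -0.063 (SE 0.13) in row 2.

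A test of whether the row difference itself differed between the groups (miR-185-inh minus ctrl-inh, limma) called 2 of the 10 genes, both higher, beside 0.353% of features called higher. These were Ccl2, with a difference of 2.17 (SE 0.41, adjusted p = 0.0482), and Tnf, with 2.01 (SE 0.40, adjusted p = 0.0483). Tnf would not have reached the filter on dim probes without the 4 ctrl-inh arrays of row 1, where it is high. Its call is therefore not independent of that filter. Ccl3 gave the highest value of the 10, 2.90 (SE 0.65), with an adjusted p of 0.0653. Cxcl1 gave -0.16 and was the 1 gene below zero, and the median of the 10 was 1.51, beside -0.10 over all features. Both calls sit at the threshold: when each liver was left out in turn, Ccl2 passed in 5 of 16 fits (values 1.94 to 2.45) and Tnf in 2 of 16 (values 1.75 to 2.27), and in 11 of 16 no member passed. Under the other settings Ccl2 passed in 9 of 11 and Tnf in 5 of 9. With normexp background correction the Tnf value was 0.65 and did not pass (adjusted p = 0.173).

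Across livers the deviations were shared by most of the 10 genes. Of the 10 genes, 3, 9, 7 and 3 lay above their own 16-array mean in miR-185-inh mice 8, 9, 10 and 12 of row 2, and 0, 0, 2 and 0 in mice 1, 3, 6 and 7 of row 1. In ctrl-inh livers the counts were 3, 1, 1 and 4 for mice 8, 9, 11 and 12 of row 2, and 10, 9, 5 and 9 for mice 1, 2, 3 and 4 of row 1. Ctrl-inh mouse 3 thus had fewer high members than the other livers of its row, and miR-185-inh mice 9 and 10 had more than the others of theirs.

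**Figure D4:**
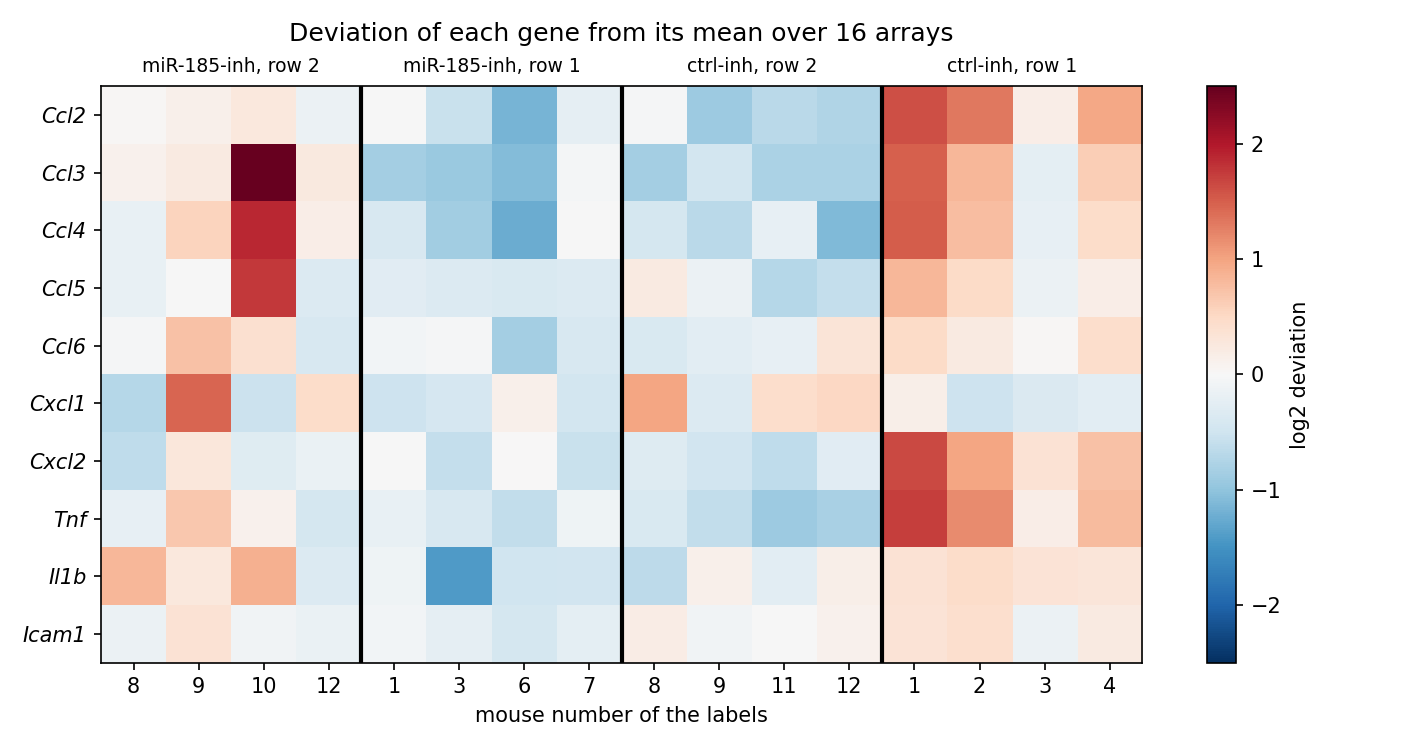
Deviation of each gene's log2 signal from its mean over the 16 arrays, with livers ordered by group, slide row and mouse number (red above the mean, blue below). Red fills most of the ctrl-inh row 1 block, and in the miR-185-inh row 2 block the deepest red marks Ccl3, Ccl4 and Ccl5 of mouse 10.

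Likeness of profiles was measured as the root mean square distance between mean-centred log2 values over the 16 arrays, where a smaller value means closer. Arrays of a slide and row are shared by both profiles, and the distance is a description. It is not scaled by spread, so genes that vary little tend to give smaller distances. The SD over the 16 arrays was 0.246 for Icam1 and 0.416 for Ccl6, against 0.990 for Ccl3. Among pairs of the 10 genes the closest were Ccl2 with Tnf (0.272), Ccl6 with Icam1 (0.279), Ccl3 with Ccl4 (0.305) and Cxcl2 with Tnf (0.327). Among the 15245 named genes outside the list, Ccl7, a monocyte attractant encoded beside Ccl2, was nearest both to Ccl2 (0.218) and to Tnf (0.263), followed by Bcl2a1c (0.276 and 0.279). Nearest to Ccl3 was Gzma (0.395), a protease of cytotoxic lymphocytes, and nearest to Ccl4 was Cd8a (0.369), a coreceptor of cytotoxic T cells. Nearest to Ccl5 were Nkg7 (0.170), of cytotoxic granules, and Cd3g (0.203), a chain of the T cell receptor complex. Ccl6 had Cd52 (0.137), a surface protein of white blood cells, as its nearest gene. Cxcl2 had Neil3 (0.312), Cxcl1 had Olfr354 (0.312) and Icam1 had Cerkl (0.105). All 10 genes had an SD over the 16 arrays above the median SD of all features, 0.222.

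Of 137 listed genes that act with the 10, 109 were tested. Between the groups 0 were called higher and 2 lower (1.83%), beside 4.74% of features. These were Irak3, which restrains signalling from the IL-1 and toll-like receptors, and Irak4, the kinase that starts it. Irak3 averaged -3.12 ± 0.36 in miR-185-inh and -2.35 ± 0.43 in ctrl-inh livers (SD, n = 8 each), a difference of -0.77 (SE 0.18, limma adjusted p = 0.0250). Irak4 averaged -0.99 ± 0.19 in miR-185-inh and -0.63 ± 0.15 in ctrl-inh livers, a difference of -0.36 (SE 0.09, adjusted p = 0.0271). The Irak4 call was lost without miR-185-inh mouse 6 (-0.33, adjusted p = 0.0529) or mouse 7 (-0.36, adjusted p = 0.0526), and with the mean of the gene's probes (-0.33, adjusted p = 0.0613). Neither gene passed within a row, where Irak3 differed by -0.63 in row 2 and -0.91 in row 1 and Irak4 by -0.24 in row 2 and -0.49 in row 1. Among the chemokine receptors Xcr1, found on cross-presenting dendritic cells, differed by -0.38 and did not pass (adjusted p = 0.0583). Ppbp (-0.48, adjusted p = 0.215) and Cxcl14 (-0.95, adjusted p = 0.344) came lowest among 18 other chemokines.
In the remaining lists the lowest p values were those of Nfkb2 (-0.29) and Birc3 (-0.21), Itga4 (-0.26) and Selp (0.14), Ly96 (-0.20) and Tlr7 (-0.29), and Csf3 (-0.32) and Nos2 (0.13), with limma adjusted p from 0.0829 to 0.422.

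Between the rows of the ctrl-inh group 10 of the 109 genes were called, all lower in row 2 (9.17%), beside 1.65% of features called lower. Il1a, the sister cytokine encoded beside Il1b, fell by 1.55 on the log2 scale (SE 0.24, limma adjusted p = 0.00847), and averaged -2.31 ± 0.26 in row 2 and -0.76 ± 0.13 in row 1 (SD, n = 4 each). Ccl7 fell by 1.54 (adjusted p = 0.0110), or by 0.995 with normexp (adjusted p = 0.0116). Tlr4, the receptor of bacterial endotoxin, fell by 1.42 (adjusted p = 0.0290). That call was lost without ctrl-inh mouse 2, 3, 4, 8, 9 or 11 (differences of -1.53 to -1.23, adjusted p from 0.0536 to 0.0812) and in a fit of the 8 ctrl-inh arrays alone (-1.42, adjusted p = 0.0511). Cxcr4, the receptor of Cxcl12, fell by 1.07 (adjusted p = 0.0154), and its adjusted p was 0.0598 without ctrl-inh mouse 1. Il15 (-0.71), Casp1 (-0.64), Icam2 (-0.59), Cxcl16 (-0.56), Tlr7 (-0.54) and Tgfb1 (-0.52) were the other 6. Leaving out 1 ctrl-inh liver ended the call of Cxcl16 in 6 fits (without mouse 1, 2, 4, 9, 11 or 12; adjusted p up to 0.0934), of Casp1 in 5 (mouse 1, 2, 4, 9 or 11; up to 0.0716), of Tlr7 in 3 (mouse 1, 4 or 11; up to 0.0623) and of Icam2 in 2 (mouse 1 or 11; up to 0.0623), with differences of -0.64 to -0.48 in those fits. The 16 tested genes of NF-kB and its regulators held 0 called genes in limma, and their median was 0.0034, with 8 above and 8 below zero. The other 18 chemokines had a median of -0.51 (2 called), 19 chemokine receptors -0.34 (1 called), 15 adhesion molecules and integrins -0.53 (1 called), 21 genes of TNF and IL-1 signalling 0.066 (2 called), 11 of the toll-like receptors -0.20 (2 called) and 9 other cytokines and enzymes -0.22 (2 called). In miR-185-inh livers 0 of the 109 passed between rows. In the test of the difference between the 2 row differences 6 of the 109 were called, all higher (5.5%), beside 0.353% of features called higher. They were Ccl7, Cxcr4, Il1a, Casp1, Icam2 and Tgfb1. When each liver was left out in turn, Cxcr4 passed in 10 of 16 fits, Ccl7 and Icam2 in 7 each, Casp1 in 3, and Il1a and Tgfb1 in 2 each.

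**Figure D5:**
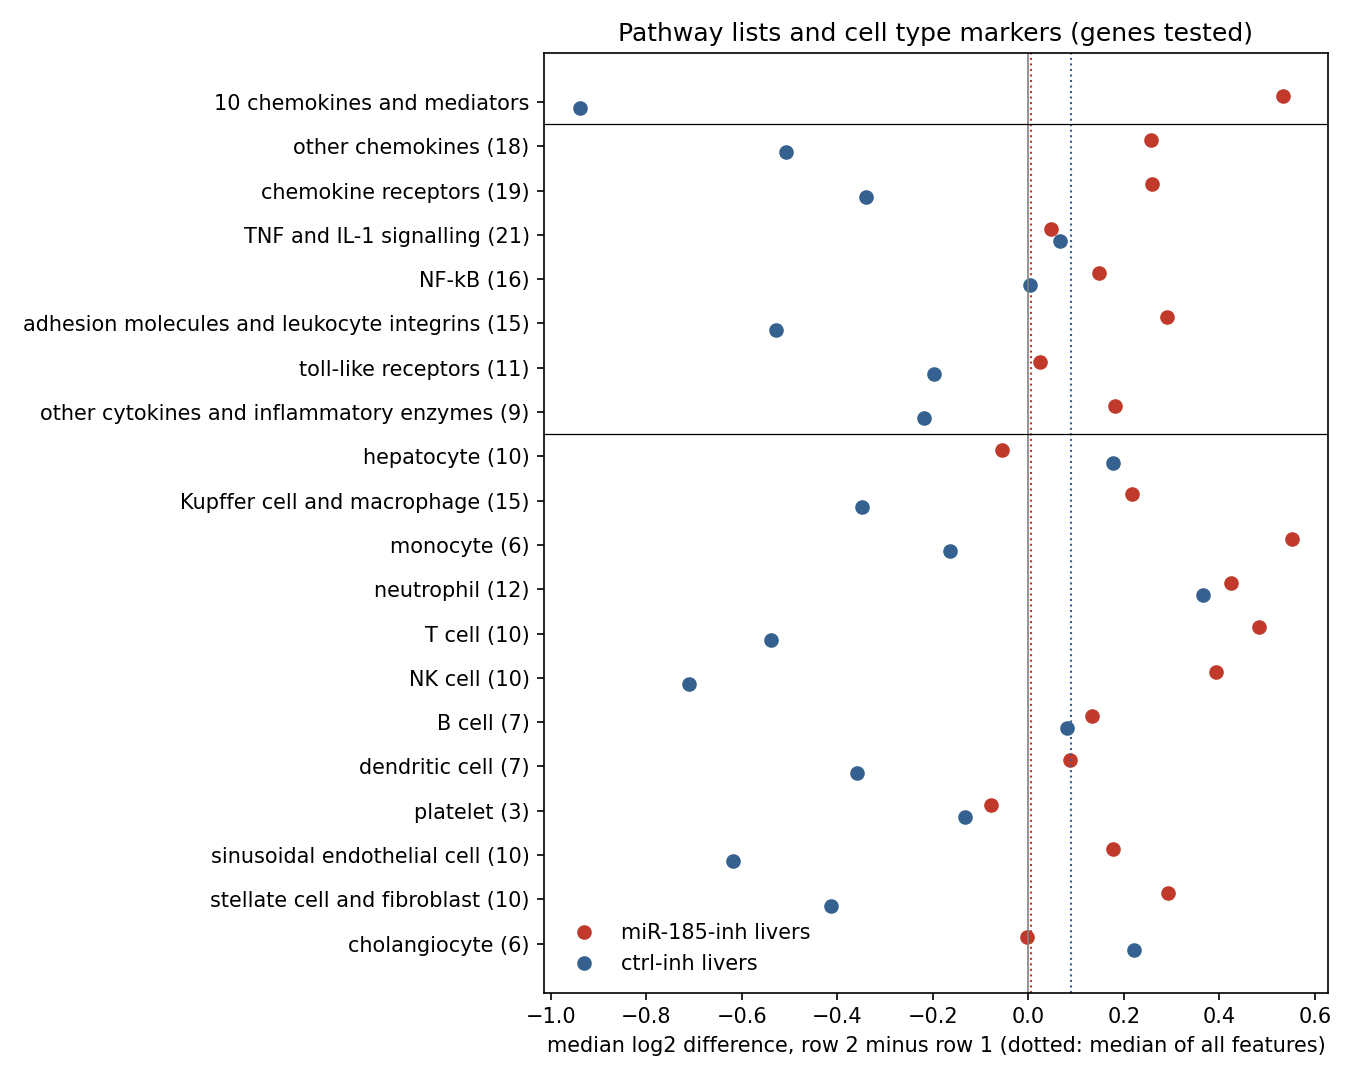
Median log2 difference of slide row 2 minus row 1 for the 10 genes, 7 lists of related genes and 12 lists of cell type markers, in miR-185-inh and in ctrl-inh livers, with the number of genes tested in each list (dotted lines, median of all features). The 10 genes have the lowest ctrl-inh median, -0.94, while lists of NF-kB (0.0034) and of TNF and IL-1 signalling (0.066) lie near all features. That rank depends on Cxcl2 and Tnf, which would not have reached the filter without the ctrl-inh arrays of row 1. With a filter on all 16 arrays the 8 members left had a median of -0.58. The plotted ctrl-inh medians of NK cell and sinusoidal endothelial markers are -0.71 and -0.62.

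Markers of several cell types moved with the ctrl-inh rows. Of 106 markers 7 were called lower in row 2 and 0 higher, beside 1.65% of features called lower. Of 10 sinusoidal endothelial markers, 10 lay below zero and 4 were called lower (Lyve1, Cdh5, Fcgr2b and Oit3, named after their values were seen), with a median of -0.62. Their summed signal was 35.0 to 47.1 times the 75th percentile in row 2 and 53.8 to 59.3 in row 1. Of 10 NK cell markers 8 lay below zero and 2 were called lower (Klrd1 and Gzmb), with sums of 4.60 to 5.15 in row 2 and 5.43 to 7.70 in row 1. The 15 Kupffer cell and macrophage markers all lay below zero with 0 called in limma (median -0.35), and their sums were 106 to 147 in row 2 and 136 to 160 in row 1. T cell markers had a median of -0.54 (0 of 10 called), stellate cell markers -0.41 (0 of 10), dendritic cell markers -0.36 (1 of 7, Flt3) and monocyte markers -0.16 (0 of 6). Hepatocyte markers had a median of 0.18 with 10 of 10 above zero, and neutrophil markers 0.37 with 11 of 12 above zero. The part of these cell types in the row differences of the 10 genes was not tested. None of the 10 genes is itself in a marker list, while 8 of the related genes are.

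In the comparison of the groups the neutrophil markers lay below zero in 12 of 12, with a median of -0.89 and 2 called lower (Ngp and Ltf), while Cxcl1 and Cxcl2 did not pass. Their sums were 24.7 to 68.0 in miR-185-inh and 32.6 to 74.0 in ctrl-inh livers. Monocyte markers lay below zero in 6 of 6 with a median of -0.41 (1 called, F13a1), and Ccl2 did not pass. The T cell marker Themis (-0.80, limma adjusted p = 0.00316) and the B cell marker Pax5 (-0.33, adjusted p = 0.0291) were the other called markers, also lower, of 5 in all among 106. That count is near the share called over all features, 4.74% (1223 of 25798). The T cell markers had a median of -0.13 with 9 of 10 below zero, and the B cell markers -0.13 with 5 of 7 below zero. The part of these cells in the group values of the 10 genes was not tested. MiR-185-inh mouse 10, the liver with the highest Ccl3, Ccl4 and Ccl5, also had the highest summed signal of its group for NK cell markers (10.6, with its other 7 livers at 3.91 to 4.61) and for T cell markers (6.36, with the other 7 at 2.81 to 3.78). The part of these cells in its chemokine values was not tested.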

How the data were processed

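Liver RNA of 16 samples was labelled with Cy3 and hybridised to 1-colour Agilent arrays. The deposited scanner files hold a processed intensity per spot, background-subtracted by Feature Extraction 11.5.1.1 per the file headers (the submitters' processing notes name version 9.1). The table of log2 values deposited by the authors equals log2 of that intensity minus 1 constant per array (column medians -1.30 to -1.22), with no centring of genes, and the choice of constant is not stated.

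Here each processed intensity was put on a log2 scale and set against the 75th percentile of its array's non-control spots. Outlier spots were dropped and spots of a probe averaged. Probes well above background on 8 or more of 16 arrays were tested, the brightest for each gene. Accessions were named through RefSeq (26762 of 55681 probes, 20284 symbols), for names only, since the array grid is on another build than this GRCm38.p6 table.

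Groups were fitted with limma 3.58.1 in R 4.3.3 over 25798 features. A second fit gave each of the 4 combinations of group and slide row its own mean and served the row differences and their difference between groups. P-values are two-sided and adjusted by Benjamini-Hochberg, with a threshold of 0.05, and single genes were also tested by exact permutation over 12870 or 70 splits. The fits were tested on simulated data. Samples sharing a mouse number did not deviate together (r from -0.13 to 0.11 over 5 numbers), so the numbers were not used as pairs. Named genes are the 10 genes, the called or lowest-p genes of 7 lists of related genes, the nearest profiles and Apoe. Some genes that this rule names are not reported here. Alternatives covered background correction, scaling, the filter, probes, eBayes, array weights, slide column, the authors' table and each liver left out. The genes and lists were chosen with earlier results of these data known.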

Additional observations from a re-analysis of the deposited data

Results flagged for a closer look

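In 106 sets of 4 to 8 livers tested for a value far from the rest, 9 sets held such a value, and chance marks about 1 set in 20. The rows are parts of the groups, so 1 value can be flagged in both. The sets are not independent, and the count cannot be weighed against chance. Ccl3 and Ccl5 of miR-185-inh mouse 10 stood far above their group and their row, at -0.33 and 3.13, with the next values at -2.58 and 1.34. Ccl3 of ctrl-inh mouse 9 (-3.29) stood above the other row 2 livers of its group, and Cxcl1 of miR-185-inh mouse 6 (2.72) above the other row 1 livers of its group. Icam1 of miR-185-inh mouse 9 (-0.04) and Irak4 of ctrl-inh mouse 12 (-0.28) were high in their groups, and Ly96 of miR-185-inh mouse 6 (0.80) was low in its group.

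The slide row difference differed between miR-185-inh and ctrl-inh livers by limma's interaction test for 8 of the genes described. The value was 2.17 for Ccl2, 2.01 for Tnf, 2.03 for Ccl7, 1.68 for Cxcr4, 1.72 for Il1a, 0.96 for Casp1, 0.88 for Icam2 and 0.64 for Tgfb1, with adjusted p from 0.0289 to 0.0483. These calls were often lost: they passed in 2 (Tnf, Il1a and Tgfb1) to 10 (Cxcr4) of 16 fits without 1 liver. With normexp background correction the Tnf value was 0.65 (adjusted p = 0.173) and that of Ccl7 was 1.27 (adjusted p = 0.0684), and neither passed.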

How the results depend on the processing

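The group comparison called 0 members with limma under all alternatives run and in all 16 fits without 1 liver (1 member had an unadjusted p under 0.05 in the reported fit), and the row comparison in ctrl-inh called 1 to 4. Values under the alternatives are log2 differences, and the causes of the shifts below were not tested except where the setting leaves out probes or livers. With normexp the row comparison in ctrl-inh called 2305 features with a member median of -0.55, and the interaction 30 features and 1 member with a median of 1.15. The interaction called 177 features after quantile normalization, 426 features and 5 members with the percentile over probes above background on all arrays, 297 and 4 with array weights, 52 and 0 with a filter on 4 arrays, 42 and 0 with the mean of a gene's probes, 29 and 1 with slide column as a covariate, and 1 of 9 members in the authors' table. Array weights gave 2808 features in the ctrl-inh row comparison. Without a filter 6112 were called there, and 2366 features with 6 members in the interaction. A filter on all 16 arrays left Cxcl2 and Tnf untested, with 1 member called in each of these comparisons and a ctrl-inh row median of -0.58. Of the group calls 26.2% were higher, against 47.9% with normexp, 46.4% after quantile normalization and 17.0% with the percentile over detected probes. Of the ctrl-inh row calls 49.6% were higher, against 76.1% with normexp, 27.9% with that percentile, 83.8% without a filter and 59.9% with array weights.

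Within row 1 the group comparison called 0 features with a member median of -1.11, and within row 2 it called 474 with 0.59. Ccl3 turned to -1.41 in row 1. In row 2 the sign turned for Ccl2 (0.66), Ccl4 (1.21), Ccl5 (0.61), Ccl6 (0.31), Cxcl2 (0.23), Tnf (0.71), Il1b (0.57), Itga4 (0.20) and Tlr7 (0.0041). The sign of the group difference also turned for Ccl4 with normexp (0.089) and quantile normalization (0.059) and for Ccl3 with array weights (-0.17). Over the mice with shared numbers, the fits with and without a replicate block each called 0 features, at -0.074 for Ccl3, 0.037 for Ccl4 and 0.0042 for Ccl6.

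Without 1 liver in turn the group comparison called 749 to 1587 features with a member median from -0.31 to -0.12. The ctrl-inh row comparison called 133 to 991 features and 2 to 4 members, with a median from -1.16 to -0.74, the lowest count without ctrl-inh mouse 1. The miR-185-inh row comparison called 708 features without mouse 7, 73 without mouse 8 and 0 otherwise. The interaction called 5 to 453 features, the highest without miR-185-inh mouse 12, and 0 to 4 members. Signs turned in such fits for the group values of Ccl3 (all such fits -0.31 to 0.26), Ccl4 (-0.30 to 0.19) and Ccl5 (-0.29 to 0.086), for the interaction of Cxcl1 (turned values 0.037 to 0.14) and for the miR-185-inh row value of Cxcl2 (turned values -0.077 to -0.0067). Another probe for each gene could not be tried, since each has 1. Dim signal limits Cxcl2 and Tnf.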
